A study of Caenorhabditis elegans with 2 samples.

Results

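The 7 Sm core protein genes of *Caenorhabditis elegans*, *snr-1* to *snr-7*, were examined for binding of SNPC-4. They were taken by name and make up 7 of the 19973 protein-coding genes annotated on the nuclear chromosomes. All peaks were read whose summit, the position of highest signal, lay within 500 bp of an annotated 5' end of a Sm gene or inside the gene. SNPC-4 had been mapped by chromatin immunoprecipitation and sequencing (ChIP-seq) from whole animals at the second larval stage (L2), in 2 biological replicates of 1 group. All animals were of strain OP179, genotype *unc-119(ed3)* III; *wgIs179*, mixed in sex, and carried an eGFP-tagged *snpc-4* transgene, so both the *unc-119* mutation and the transgene are present throughout. OP179 is a single transgenic strain, and the promoter that drives the transgene was not given in the sources used here. No second condition and no untagged strain was labelled, so the comparisons below are between genes and between peak lists. In whole animals, binding in more cells and more binding per cell cannot be told apart.

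SNPC-4 belongs to SNAPc, the complex that activates small nuclear RNA (snRNA) genes by binding just before their start. The Sm proteins are the protein partners of those RNAs: they close into a ring around a short uridine-rich site of most spliceosomal snRNAs and of the worm's trans-splicing leader RNAs, and form the core of those small nuclear ribonucleoproteins (snRNPs). The U6 snRNA carries a ring of the related LSm proteins instead. The ring is built from D1 with D2, from D3 with B, and from E, F and G. In worms many messenger RNAs are trans-spliced, so an annotated 5' end can be the site where a leader was joined and lie downstream of the true transcription start.

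The measurements come from 4 deposited peak lists on the ce11 build. Peaks that passed the irreproducible discovery rate (IDR) procedure, which is based on how alike peaks rank between replicates, numbered 1864. The pooled list held 30000 entries, and the replicate lists held 21391 and 30000. The pooled and replicate lists hold background regions as well as peaks, as they were made to be the input of IDR, so an entry that did not pass IDR is a candidate and not an established binding site. The signal of a peak is the authors' peak strength. Its scaling to depth was not stated and depth is unknown, so signals are read by rank or percentile within 1 list. All 1864 IDR peaks were the 1864 strongest of the pooled list, so an IDR peak is here a pooled peak with a signal of at least 28.0. Passing does not by itself show that both replicates ranked that peak alike. The peak of *snr-6*, for one, passed with percentiles of 52.27 in replicate 1 and 96.41 in replicate 2.

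Sequences around the strongest pooled summit are shown first for 4 of the 7 genes, 3 with an IDR peak and *snr-5* with a weak candidate, because the reading of these peaks rests on whether a summit belongs to the Sm gene or to a neighbour, and because 1 short word recurred in them. Each run is from the WBcel235 genome of RefSeq, the assembly of ce11, 5' to 3' in the direction of the Sm gene, with 50 bases before the strongest pooled summit and 100 after it. Capitals mark the word TTCGAAAA or its reverse complement TTTTCGAA. The windows are chrIV:17087566-17087716 (plus strand) for *snr-1*, chrII:6489897-6490047 (minus) for *snr-3*, chrV:11979959-11980109 (minus) for *snr-4* and chrIII:7861707-7861857 (plus) for *snr-5*.
snr-1: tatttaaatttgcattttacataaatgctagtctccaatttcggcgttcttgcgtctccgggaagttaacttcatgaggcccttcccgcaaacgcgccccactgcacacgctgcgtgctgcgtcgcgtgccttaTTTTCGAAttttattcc
snr-3: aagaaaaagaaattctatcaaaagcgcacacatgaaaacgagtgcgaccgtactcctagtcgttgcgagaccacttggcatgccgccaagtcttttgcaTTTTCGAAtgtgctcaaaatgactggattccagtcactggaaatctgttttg
snr-4: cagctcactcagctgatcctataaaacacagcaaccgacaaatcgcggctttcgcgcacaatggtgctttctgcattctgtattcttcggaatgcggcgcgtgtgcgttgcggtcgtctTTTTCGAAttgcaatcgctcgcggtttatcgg
snr-5: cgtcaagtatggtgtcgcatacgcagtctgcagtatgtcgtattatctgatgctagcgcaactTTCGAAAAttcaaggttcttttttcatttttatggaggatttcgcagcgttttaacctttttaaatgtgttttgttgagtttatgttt

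SNPC-4 peaks that passed IDR lay upstream of 4 of the 7 Sm genes, *snr-1*, *snr-3*, *snr-4* and *snr-6*. The other 3 genes, *snr-2*, *snr-5* and *snr-7*, had pooled candidates that did not pass, so all 7 had an entry in the pooled list. Among protein-coding genes 52.1% had a pooled candidate by the same rule and 7.75% had an IDR summit. Both replicate lists held a summit at 6 of the 7 genes, against 32.9% of protein-coding genes, and the exception was *snr-5*, which had none in replicate 1. The strongest pooled summit lay outside the gene and upstream of its 5' end at 7 of 7 Sm genes. Among protein-coding genes this held for 4241, which is 21.2% of all 19973, genes without a candidate included. The like comparison for the Sm genes, which all have a candidate, is 4241 of the 10404 genes with one. Gene length was not matched. These shares are descriptions of 7 genes in 1 group of animals, and no test was made.

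**Figure D1:**
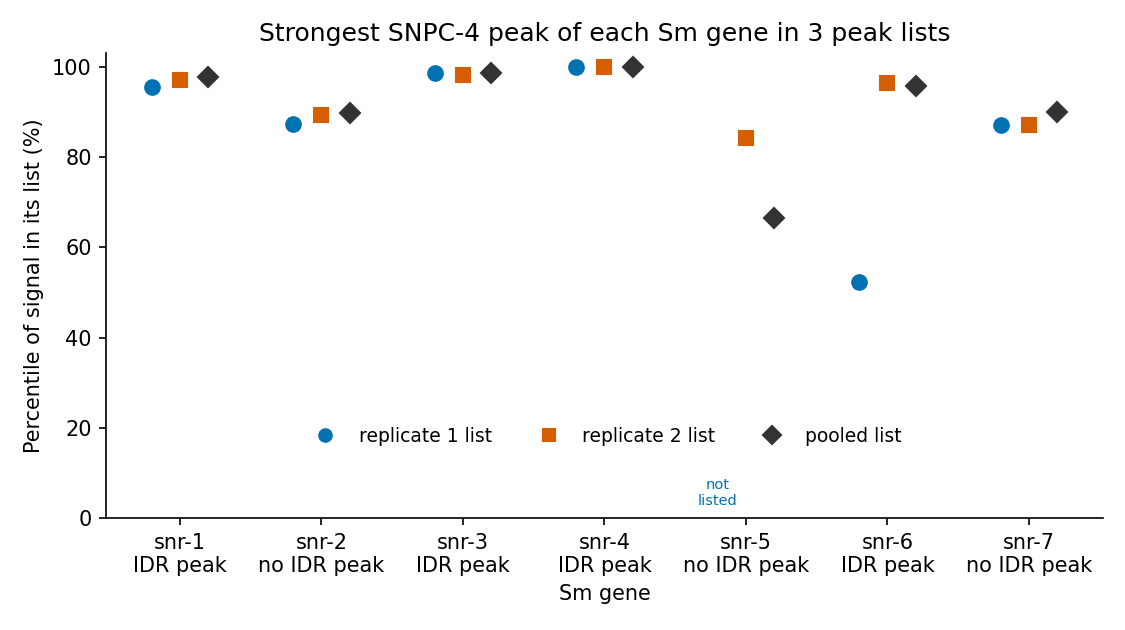
The percentile of the strongest peak of each Sm gene (y axis, %) among all peaks of the replicate 1 list, the replicate 2 list and the pooled list, with 1 point per list and the IDR status under each gene name. The points of snr-4 sit at the top in all 3 lists, those of snr-6 lie apart (52.27 in replicate 1 and 96.41 in replicate 2), and snr-5 has no replicate 1 point.

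*snr-4* encodes SmD2 (WBGene00004917, V 11978508 to 11979723, minus strand). Its peak, at V 11979877 to 11980273, had a signal of 2194 in the pooled and IDR lists, 634 in replicate 1 and 1561 in replicate 2. That was rank 8 of 30000 in the pooled list, rank 7 in replicate 1 and rank 8 in replicate 2. The summits of the replicates were 1 bp apart, and the peak was by far the highest of the 7 genes in each list.

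This peak lay nearer to noncoding genes than to *snr-4*. The summit was 336 bp upstream of the *snr-4* 5' end but 59 bp upstream of the snRNA gene *C52E4.8* (WBGene00014291, V 11980118 to 11980261, plus strand), which Ensembl names *T11F9.15* and which is transcribed away from *snr-4*. The summit also fell inside the unclassified ncRNA gene *C52E4.14* (WBGene00196956, V 11979959 to 11980101, plus strand), 100 bp past its 5' end. The nearest 5' end of another protein-coding gene, *mif-2*, was 1600 bp away. An snRNA gene and a Sm gene thus stood head to head around 1 of the strongest peaks of the data, and the 5' end nearest its summit was that of the snRNA gene.

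The snRNA gene at this peak has an identical copy elsewhere, and the copies differed in SNPC-4. *C52E4.8* and *T11F9.15* (WBGene00014517, V 11478148 to 11478291, plus strand) were identical at 144 of 144 transcribed bases. Of the 100 bases upstream, aligned without gaps, 37 were identical. No candidate summit lay within 250 bp of the second copy in the pooled or either replicate list, while the first had the signal of 2194. The 100 upstream bases are shown in lower case and the first 10 transcribed bases in capitals, on the plus strand at chrV:11980018-11980127 for *C52E4.8* and chrV:11478048-11478157 for *T11F9.15*. How the authors treated reads that match both copies was not given in the sources used here, and its part in the difference was not tested.
C52E4.8: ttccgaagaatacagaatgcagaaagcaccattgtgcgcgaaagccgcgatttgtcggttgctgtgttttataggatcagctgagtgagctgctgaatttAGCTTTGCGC
T11F9.15: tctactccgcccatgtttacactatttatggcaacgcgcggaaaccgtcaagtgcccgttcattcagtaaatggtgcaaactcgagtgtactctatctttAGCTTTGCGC

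A second, much weaker summit fell in an intron of *snr-4*, 331 bp downstream of its 5' end. Its signal was 16.7 in the pooled list (rank 3778), 4.66 in replicate 1 (rank 4433) and 12.4 in replicate 2 (rank 4563). The 5' end of a piRNA gene, *21ur-10927*, lay 59 bp from it, and the nearest snRNA, snoRNA or ncRNA 5' end was that of *C52E4.14* at 567 bp, so none of those classes was nearer than the *snr-4* 5' end.

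*snr-3* encodes SmD1, the partner of SmD2 (WBGene00004916, II 6488830 to 6489761, minus strand). Its peak, at II 6489842 to 6490151, had a signal of 65.0 in the pooled and IDR lists (rank 448), 19.5 in replicate 1 (rank 317) and 45.3 in replicate 2 (rank 545). The replicate summits were 5 bp apart, and *snr-3* was second among the Sm genes in all 3 of these lists. The summit lay 236 bp upstream of *snr-3* and 168 bp from that of *rsp-5*, a divergent gene for a putative SR splicing factor. No noncoding gene of the 3 classes was nearer: the closest, *T28D9.13*, lay 1939 bp away. A weaker candidate in a *snr-3* intron, 69 bp upstream of the inner of its 2 annotated 5' ends, had a signal of 7.39 in the pooled list (rank 17867) and 4.28 in replicate 1 (rank 5353), and was not listed in replicate 2. It too had no nearer noncoding gene of these classes, the closest being *T28D9.13* at 2415 bp.

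*snr-1* encodes SmD3 (WBGene00004914, IV 17088049 to 17088946, plus strand). Its peak, at IV 17087461 to 17087770, had a signal of 50.9 in the pooled and IDR lists (rank 706), 10.5 in replicate 1 (rank 991) and 35.8 in replicate 2 (rank 864). Among the Sm genes *snr-1* followed *snr-3* in each of these lists, so the order of *snr-4*, *snr-3* and *snr-1* was the same in both replicates. The summit was 433 bp upstream of *snr-1*, the farthest of the 7, and 178 bp from the start of the divergent gene *snx-13*, which encodes sorting nexin-13. The nearest noncoding gene of the 3 classes (WBGene00200927) was 30252 bp away. Replicate 1 alone listed a further weak summit, with a signal of 2.84 (rank 12509), in an untranslated exon of *snr-1*. It was 815 bp downstream of the *snr-1* 5' end, and the coding gene *Y116A8C.43* begins on the same strand at 802 bp. No noncoding gene of the 3 classes was nearer.

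*snr-2* encodes SmB, the partner of SmD3 (WBGene00004915, I 13339397 to 13340224, plus strand), and had no IDR peak. Its strongest summit had a signal of 19.3 in the pooled list (rank 3067), 5.91 in replicate 1 (rank 2701) and 15.4 in replicate 2 (rank 3200), between the 87.38 and 89.78 percentiles. The replicate summits were 19 bp apart. The strongest pooled summit lay 391 bp upstream of *snr-2* and 75 bp from the start of the divergent gene *W08E3.4*. The nearest noncoding gene of the 3 classes, *W08E3.5*, was 1794 bp away. Replicate 1 alone listed a second summit in a coding exon, with a signal of 2.27 (rank 18058). That summit was 35 bp downstream of the *snr-2* 5' end, and no noncoding gene of the 3 classes was nearer.

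*snr-6* encodes SmE (WBGene00004919, III 12429172 to 12429629, minus strand), and it was the gene on which the replicates differed most among the 6 listed in both. Its peak, at III 12429719 to 12430028, had a signal of 35.9 in the pooled and IDR lists (rank 1308) and 31.5 in replicate 2 (rank 1077). In replicate 1 the signal was 3.17, rank 10210 of 21391. Replicate 1 thus placed it at the 52.27 percentile and replicate 2 at the 96.41 percentile, with summits 44 bp apart, the widest gap of the 6. At the length of the IDR list it was absent from the 1864 strongest peaks of replicate 1 and present in the 1864 strongest of replicate 2. The summit lay 245 bp upstream of *snr-6*, with the next coding 5' end, that of *Y49E10.16*, at 635 bp. The nearest noncoding gene of the 3 classes, *Y49E10.32*, was at 29977 bp.

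*snr-7* encodes SmG (WBGene00004920, I 2727014 to 2727545, plus strand) and had no IDR peak. Its signal was 19.5 in the pooled list (rank 3012), 5.86 in replicate 1 (rank 2748) and 13.6 in replicate 2 (rank 3890), close to the percentiles of *snr-2*, and the 2 genes changed places between the replicate 2 and pooled lists. The summit was 264 bp upstream of *snr-7* but 26 bp from the start of the divergent gene *Y71F9B.6*, which encodes a protein with a cyclin N-terminal domain. The nearest noncoding gene of the 3 classes, *Y71F9B.17*, was 12908 bp away. *snr-7* was the 1 Sm gene whose annotated span differed between Ensembl and RefSeq.

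*snr-5* encodes SmF (WBGene00004918, III 7862070 to 7862574, plus strand) and had the weakest candidate of the 7 and no IDR peak. Its signal was 9.80 in the pooled list (rank 10040) and 12.2 in replicate 2 (rank 4724), and replicate 1 listed no summit. The summit lay 313 bp upstream of *snr-5*, which was also the nearest coding 5' end, since that of *cuc-1*, for a copper transport protein, lay 772 bp away. The nearest noncoding gene of the 3 classes, *ZK652.14*, was 2079 bp away. By subcomplex, both genes of the D1 and D2 pair had an IDR peak by the rule used here. So did 1 of the 2 genes of the D3 and B pair and 1 of the 3 genes for E, F and G. The share over all protein-coding genes was 7.75%. At *snr-1*, *snr-3* and *snr-4* the 5' end of another gene was nearer the IDR summit, so these counts do not assign the peaks to the Sm genes. The weakest member inside the IDR list was *snr-6* at 35.9, and the strongest outside it was *snr-7* at 19.5, on either side of the lowest IDR signal of 28.0.

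**Figure D2:**
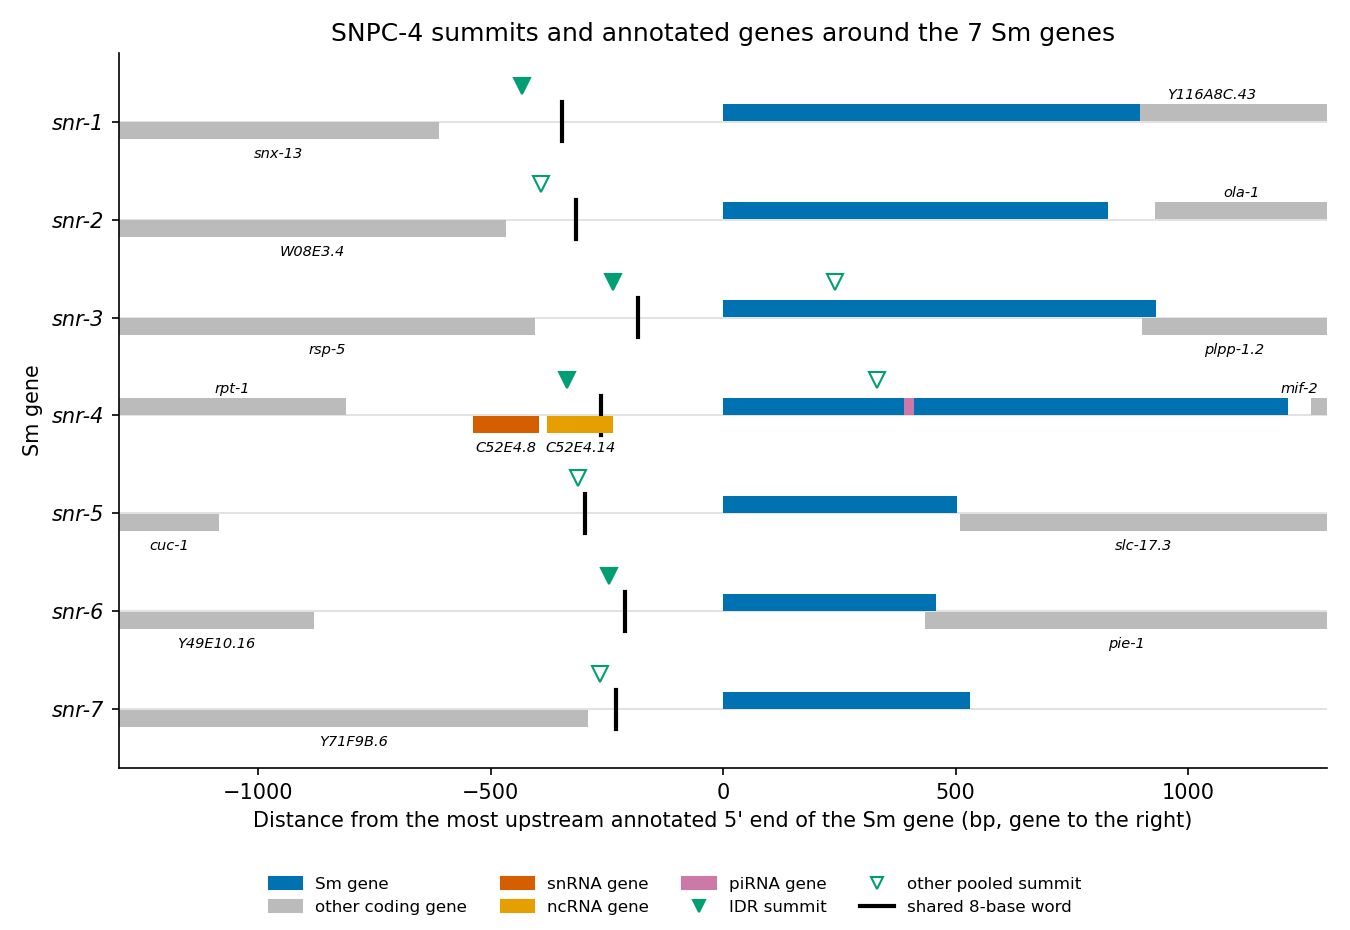
SNPC-4 summits and annotated genes around each Sm gene, aligned on the most upstream annotated 5' end (x axis, bp, with the Sm gene to the right); bars above the line are on the strand of the Sm gene and bars below it on the other strand, and triangles are pooled summits, filled where they passed IDR. A summit stands upstream of every Sm gene, between 236 and 433 bp, and only at snr-4 does an snRNA or ncRNA gene stand beside it.

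At 6 of the 7 genes, the exception being *snr-4*, the upstream summit lay between the Sm gene and a coding gene on the other strand. Another protein-coding 5' end was nearer than that of the Sm gene at 4 of 7 (*snr-1*, *snr-2*, *snr-3* and *snr-7*), against 16.2% of the 4241 protein-coding genes whose strongest pooled summit lay upstream. At these 4 genes the summit was nearer the partner, so distance does not assign the peak to the Sm gene. The 5' end of an snRNA, snoRNA or ncRNA gene was nearer at 1 of 7, *snr-4*, against 7.57% of the same 4241 genes. Neither share was matched for summit distance, whose median was 203 bp for the 4241 genes and 313 bp for the Sm genes. At *snr-5* and *snr-6* the Sm gene had the nearest 5' end of any coding gene or gene of these classes, and of the 2 only *snr-6* passed IDR.

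The distances of the 7 upstream summits ran from 236 to 433 bp, with a median of 313 bp (quartiles 254 and 364). For the 4241 protein-coding genes the median was 203 bp (quartiles 115 and 317), and for the 1094 genes with a strongest IDR summit upstream it was 193 bp (quartiles 124 and 293). All 7 Sm summits lay more than 200 bp upstream, as did 50.6% of the 4241 genes and 48.3% of the 1094. None of these 7 strongest summits was close to the annotated 5' end, but the true transcription starts of these genes were not measured here. Weaker summits did lie closer. At *snr-3* a pooled candidate was 69 bp upstream of the inner 5' end, and at *snr-2* a summit of replicate 1 alone was 35 bp downstream.

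**Figure D3:**
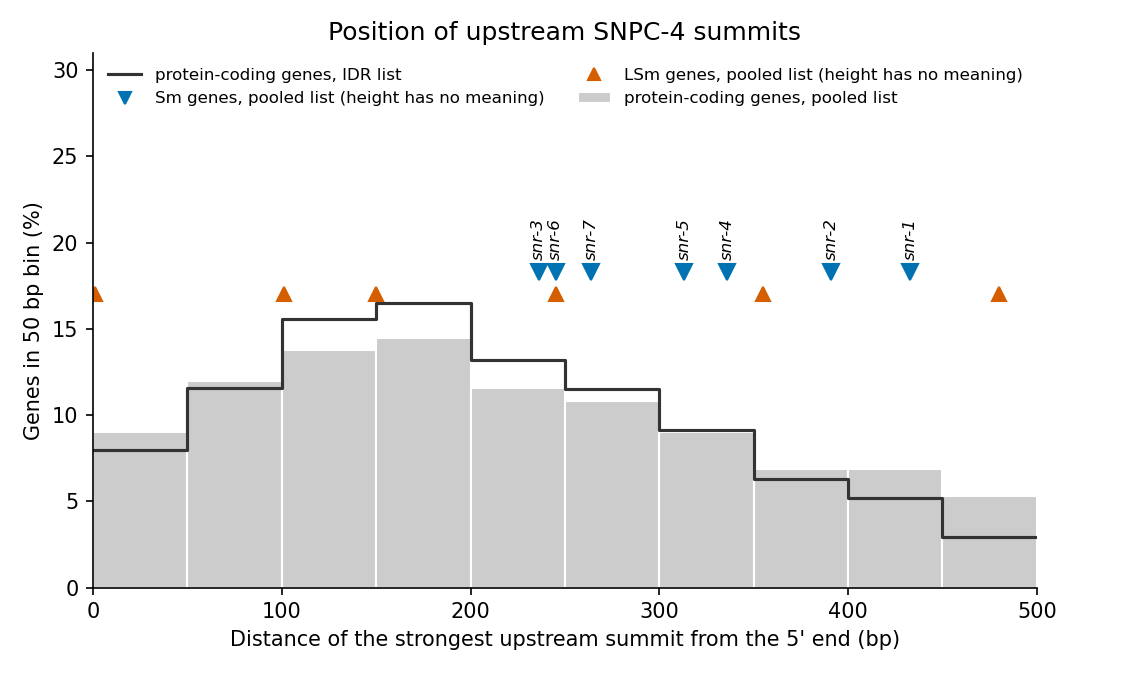
Distance of the strongest upstream summit from the annotated 5' end (x axis, bp) for protein-coding genes in the pooled list (grey bars) and the IDR list (line), as the percent of genes in each 50 bp bin (y axis); triangles mark the 7 Sm genes and the LSm genes with an upstream summit, at heights that carry no value. The Sm genes lie from 236 to 433 bp, to the right of the pooled median of 203 bp.

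In strength the Sm genes were spread widely among all protein-coding genes, counting genes without a candidate as lower. As high a pooled signal or higher was found at 6 of 19973 genes (0.0300%) for *snr-4*, *snr-4* included. The share was 1.90% for *snr-3*, 3.08% for *snr-1*, 5.71% for *snr-6*, 11.5% for *snr-7*, 11.7% for *snr-2* and 26.8% for *snr-5*. Without the peak shared with *C52E4.8*, the remaining Sm upstream signals ran from 9.80 to 65.0, against a median of 8.10 over the pooled list and 43.7 over the IDR list.

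**Figure D4:**
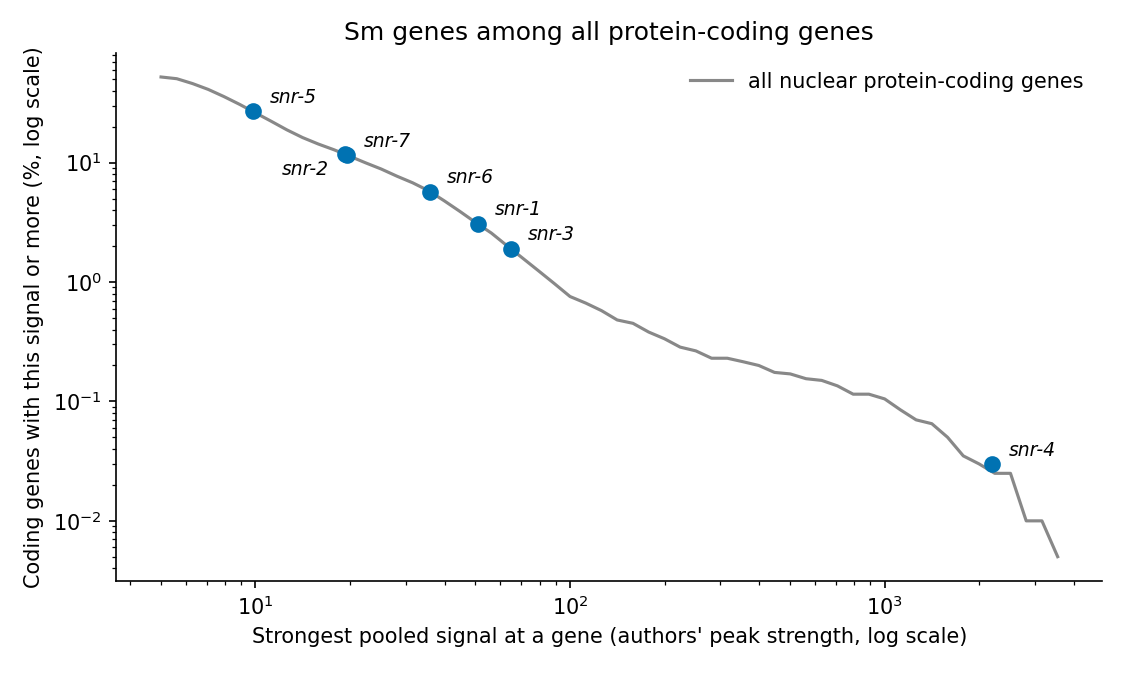
Percent of the 19973 protein-coding genes whose strongest pooled signal is as high or higher (y axis, log scale) against that signal in the authors' units (x axis, log scale); the line is all genes and the points are the 7 Sm genes. snr-4 stands alone at 2194, and the other 6 lie between 9.80 and 65.0.

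The 3 protein-coding genes with percentiles most like those of *snr-4* over the 3 lists were *pxn-1*, *Y75B8A.23* and *tim-1*, with summed percentile differences of 0.018, 0.025 and 0.025. Each had a noncoding gene near the summit, as *snr-4* did. At *pxn-1* the summit (signal 2703, rank 6) was in an intron, 42 bp from the 5' end of the snoRNA gene *ZK994.7*. *Y75B8A.23* and *tim-1* shared 1 peak (signal 2739.6, rank 5), 245 and 251 bp upstream of them and 50 bp from the start of *sls-2.8*, a gene for a trans-splicing leader RNA. Likeness here means rank in these lists and nothing more. How many other high-ranking peaks have a noncoding gene nearby is not given here.

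Words that are frequent at IDR summits, and another that is not, were looked for around the strongest pooled summit of each Sm gene. The intronic summits of *snr-3* and *snr-4* were not searched. The 8-base words AGACGCAG, CGGAACCC and GCCGACAC, taken from an earlier analysis of these same lists, were searched on both strands within 50 bp of each summit. They were found at 10.5%, 6.47% and 6.31% of the 1839 nuclear IDR summits, at 1.53%, 0.558% and 0.881% of the 28136 other pooled summits, and at 0 of the 7 Sm summits. The word CTGTTTCA, rarer at IDR summits than at the others, was at 0.109% and 1.29% of those summits and at 0 of the 7 strongest Sm summits. With 7 windows, and words in at most 10.5% of IDR summits, a count of 0 says only that these letters are not in these windows.

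One word of 8 bases, TTCGAAAA or its reverse complement, lay within 100 bp of the strongest pooled summit at all 7 Sm genes. It was 1 of 32896 possible words, noticed in these windows, and the next most shared word was in 5 of 7. The same word lay within 100 bp of the summit at 7.29% of the 4241 protein-coding genes with a strongest upstream summit, 4.40% of IDR summits and 5.86% of other pooled summits. Since the word was chosen for being shared, its count of 7 is no test and names no factor.

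The copies shared a side but not a fixed position. In each of the 7 windows the word was on the side of the Sm gene, with its centre 16.5 to 87.5 bp from the summit, and 56.0% of the 309 protein-coding genes with the word had a copy on the gene side. This placement was not particular to the Sm genes, since the 6 copies at the 4 other snRNP genes with the word lay in the same direction from the summit. Counted upstream from the annotated 5' end, its first base was at 349 bp for *snr-1*, 320 for *snr-2*, 187 for *snr-3*, 267 for *snr-4*, 300 for *snr-5*, 214 for *snr-6* and 233 for *snr-7*. It read TTTTCGAA towards the gene at *snr-1*, *snr-2*, *snr-3*, *snr-4* and *snr-6*, and TTCGAAAA at *snr-5* and *snr-7*. The copy at *snr-4* fell inside *C52E4.14*, between the summit and *snr-4*. Within 50 bp of the summit the word remained at 3 of 7 Sm genes and 3.28% of the 4241, and within 150 bp at 7 of 7 and 10.8%.

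Base composition varied among the Sm windows of 100 bp each side. The GC content was 51.7% at *snr-4*, 43.3% at *snr-2*, 40.8% at *snr-3*, 38.3% at *snr-1*, 35.8% at *snr-6* and 35.3% at both *snr-5* and *snr-7*. The median was 38.3% for the Sm genes, 44.8% for IDR summits and 33.3% for other pooled summits. *snr-4*, the window beside the snRNA gene, was above the IDR median, and the other 6 were below it.

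Genes for other proteins of the snRNPs were read in the same way. The LSm proteins, which form a like ring on U6 RNA or on messenger RNA, had pooled candidates at 8 of 8 genes, IDR peaks at 4 and a strongest pooled summit upstream at 6. The IDR peaks were at *lsm-1* (signal 47.5, 355 bp upstream), *gut-2*, which encodes LSm2 (46.1, 1 bp), *lsm-7* (35.6, 245 bp) and *lsm-5* (33.8, 480 bp). Replicate 1 listed no summit at *lsm-5*, and replicate 2 gave 33.2.

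The list of genes for snRNP-specific proteins had IDR peaks at 2 of 16 and pooled candidates at 8. The IDR peaks were at *prp-31*, for a U4/U6 snRNP protein (33.2, 160 bp upstream), and *snu-13* (31.0, 298 bp), whose summit was 27 bp from the 5' end of the ncRNA gene *M28.13*. Of 4 genes for proteins of the trans-splicing snRNP, 1 had an IDR peak, *sna-3* (51.9, 273 bp), and 3 a pooled candidate. Of 8 genes for snRNP assembly and transport, which load the Sm ring and carry the snRNP, 0 had an IDR peak and 3 a pooled candidate. Of these 36 genes 7 had an IDR peak and 22 a pooled candidate, against the 7.75% and 52.1% of all protein-coding genes. The word TTCGAAAA lay within 100 bp of the strongest summit at 4 of the 22, namely *lsm-7*, *lsm-8*, *prp-31* and *snu-13*. Their copies, 2 at *lsm-7* and 2 overlapping ones at *snu-13*, had centres 5.5 to 65.5 bp from the summit in the direction of transcription. The Sm and LSm lists had the largest shares of genes with an IDR peak, 4 of 7 and 4 of 8, and the difference between the lists was not tested.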

How the data were processed

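ChIP-seq peak lists of SNPC-4 from 2 biological replicates of 1 group were used, on ce11. Per the deposited description files, the authors listed candidate peaks against a control alignment for each replicate and for pooled reads, and combined them by IDR. Which aligner and caller were run, and in what version, is not given in the sources used here. In the deposited lists the signal is the strength the authors' caller gave a peak, and the deposited −log10 q value was not used for any result. No read counts were at hand, so depth is unknown. The 4 lists on ce10 were not used, since coordinates were not converted.

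Genes came from Ensembl release 115 on WBcel235, and sequences and products from RefSeq. Summits were assigned to a gene if inside it or at most 500 bp from the 5' end of any of its transcripts. snRNA, snoRNA and ncRNA 5' ends, 8239 genes in all, were compared by distance. The Sm genes, the other gene lists and the searched words were chosen with earlier results of these data known. One of 9 assembly genes, *snup-1*, was not matched by symbol. Named genes were the Sm genes, their nearest noncoding genes, coding genes nearer an IDR summit, IDR members of each list (at most 5), and the 3 genes most like *snr-4*. The coding neighbours of the other Sm summits, the piRNA gene, the second snRNA copy, *lsm-8* and the shared word were named after their values were seen. Assignment was checked on planted summits. Alternatives were windows of 250 and 1000 bp, 5' ends only, peak overlap, gene-record ends, body distances, the stronger 50% of each list and single replicates. Word windows of 50 and 150 bp were added after seeing the data. Summit sequences of the other Sm genes are not reported here. No statistical test was made. Python 3.11.15, numpy 2.4.6, scipy 1.17.1, matplotlib 3.10.9 and pysam 0.24.0 were used.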

Additional observations from a re-analysis of the deposited data

How the results depend on the processing

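The 6 results were recomputed under 33 alternatives, of which 27 kept the value, 6 moved it and 0 reversed it. A count was taken as kept within 1.5 times its main value, so 4 to 3 and 7 to 6 genes count as kept. The percentile was taken as kept within 1 SD of the replicates. The pooled and replicate 2 values were equal at 99.977, so any difference of replicate 1 counted as moved, whatever its size. Its 99.972 was rank 7 of 21391, against rank 8 of 30000 in the other 2 lists, so that label carries no information. A window of 250 bp lowered the Sm genes with an IDR summit to 2 (*snr-3* and *snr-6*), those with a pooled candidate to 3, those with a summit in both replicates to 2, and the IDR peaks nearer a noncoding gene to 0, because 5 of the 7 strongest summits lay more than 250 bp upstream. The shared word was at 3 Sm genes within 50 bp. Leaving out 1 replicate in turn gave IDR-sized counts of 3 to 4, pooled counts of 6 to 7 and a percentile of the strongest peak of 99.972 to 99.977. *snr-6* was lost without replicate 2, and also in the stronger 932 IDR peaks. No paired analysis was possible because there was 1 group. Reads, control signal, mappability and transcription starts were not analysed here, so each signal carries no error beyond the replicate lists, and a gene missing from a list may lie just under its threshold.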
